A study of Mus musculus with 10 samples.

Results

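Interferon response and antigen presentation genes were followed in the liver of lactating mice fed carbohydrates that enter the blood fast or slowly. The list held 41 genes: interferon-induced antiviral genes, the factors and sensors that control them, interferon-inducible GTPases, chemokines, and genes of antigen presentation by major histocompatibility complex (MHC) class I and class II. Of these, 39 had a probe set with that gene as its only symbol, out of 18193 genes named in this way. A probe set is a group of short probes for the same transcript. Isg15 was left out because its probe set is shared with another symbol, and Ifi44 was not analysed here. Each gene was read at its probe set with the highest mean over the 10 arrays.

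All mice were of the QSi5 strain and were fed from pregnancy until lactation peaked, when liver RNA was taken. The 5 HGI mice received a diet of high glycaemic index in which glucose made up 51.4% of the weight and gross energy was 15.6 MJ/kg. The 5 LGI mice received a diet of low glycaemic index in which a high-amylose starch took the place of the glucose (51.4%) and gross energy was 16.3 MJ/kg. The labels give every HGI mouse a positive and every LGI mouse a negative energy balance, so effects of diet and of energy balance cannot be told apart. Each mouse had 1 Affymetrix array. Values are the authors' deposited log2 levels, and a difference is HGI minus LGI on that scale. In whole liver, fewer cells of a type and less RNA per cell cannot be told apart.

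Type I interferons signal through receptor-bound kinases to transcription factors that bind the interferon-stimulated response element (ISRE) in promoters of antiviral genes. Interferon-gamma acts through gamma-activated sites (GAS) in promoters and induces GTPases of the Gbp and Irg families, chemokines and, through CIITA, the class II genes. In liver, hepatocytes answer both kinds of interferon, while class II molecules belong mainly to Kupffer cells, dendritic cells and B cells.

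The arrays correlated with each other at 0.986 to 0.996, and the mean correlation within its group was lowest for LGI 4 (0.988). HGI 1 had the narrowest spread of values (SD 2.16 log2, against 2.26 to 2.31 on the others). The 3' minus 5' signal of the Actb control probes, a sign of RNA quality, was highest in LGI 4 (2.27 log2, against 1.25 to 2.11). That of Gapdh was highest in HGI 5 (0.99 log2), with LGI 4 next (0.87). The 10 hepatocyte markers had a mean level of 13.38 to 13.54 log2 over the arrays, lowest in LGI 4 (13.38) and HGI 5 (13.39). In LGI 4 only Fgb of the 10 lay above the mean of the other LGI mice (by 0.79 log2). The others lay below it, furthest in Serpina1c (-0.52 log2). Alb stood at 14.65 to 14.71 log2. The array medians were 3.91 to 3.97 log2, and 2 members, Ifit2 and Mx1, lay below the median on every array.

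No member passed the threshold of limma's test (adjusted p under 0.05 over all 45037 probe sets), where 0.0824% of all named genes did. The median difference of the 39 members was -0.06, against -0.03 for all named genes, with 15 members above and 24 below 0 (58.2% of all named genes lay below 0). The smallest adjusted p was 0.105, that of Rsad2. At an unadjusted p under 0.05 there were 3 members (Rsad2, Usp18 and Ifih1), or 7.69%, against 9.3% of all named genes. Those shares are close, so the list held no more small p-values than the genes at large. The list stood apart in 1 array: 24 of the 39 members (61.5%) had their highest level of all 10 arrays in LGI 4, where 14.7% of all named genes did. In 9 members (23.1%) LGI 4 stood apart above the other LGI mice by a gap over 0.71 of the group's range, as it did in 2.46% of all named genes. LGI 4 and the members were singled out with earlier results of these data known, so these shares are descriptions and not a test.

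**Figure D1:**
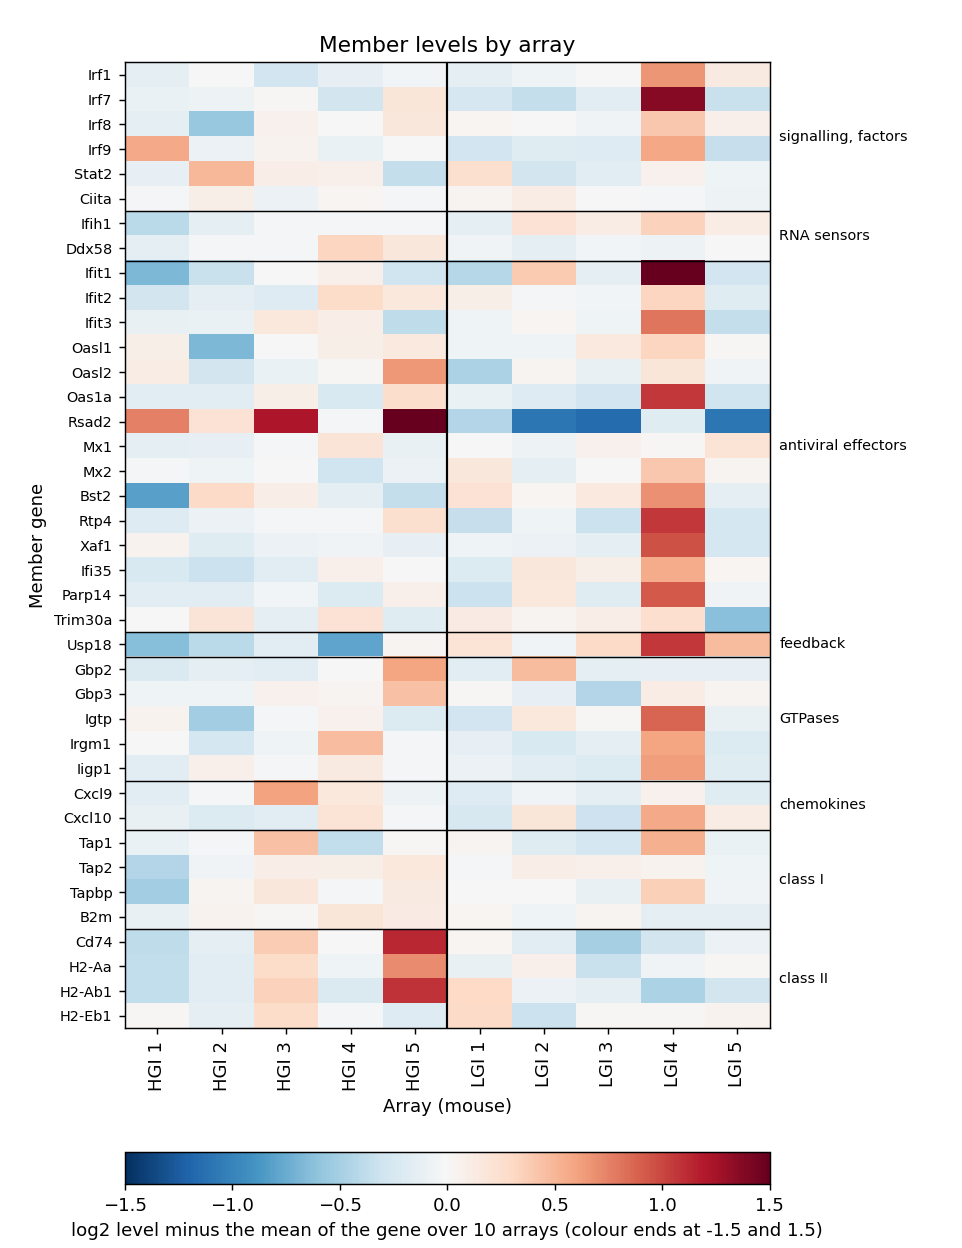
Levels of the 39 members (rows, by role) on the 10 arrays (columns), each as the log2 level minus the mean of that gene over the arrays. LGI 4 is the highest array for 24 members, Rsad2 is high across the HGI arrays, and Cd74, H2-Aa and H2-Ab1 are highest in HGI 5.

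Rsad2 encodes viperin, an interferon-induced radical SAM enzyme that makes a chain-terminating nucleotide and sits on the endoplasmic reticulum and lipid droplets. Its level in HGI 1 to 5 was 8.24, 7.70, 8.69, 7.47 and 9.26 log2. In LGI 1 to 5 it was 7.04, 6.39, 6.33, 7.31 and 6.40 log2. At this probe set every HGI mouse lay above every LGI mouse, and the nearest pair was HGI 4 and LGI 4. The groups of 1 member, Rsad2, thus did not overlap (2.56% of members), against 2.17% of all named genes in either direction and 0.5% with HGI higher. The difference was 1.58 ± 0.30 (log2, SE, n = 5 each; limma unadjusted p = 1.70e-04, adjusted p = 0.105), a 2.99-fold higher mean level in HGI (8.27 ± 0.73 against 6.69 ± 0.45 log2, SD). The other Rsad2 probe sets, which are dimmer, stood at 1.51 (unadjusted p = 0.00110, adjusted p = 0.237) and 0.57 (unadjusted p = 0.00493, adjusted p = 0.407). The groups overlapped at both. At the first LGI 4 (5.04 log2) lay above HGI 2 (4.855 log2) and HGI 4 (4.80 log2). At the second LGI 1 (3.87 log2) lay above HGI 2 (3.86 log2) and HGI 4 (3.60 log2), and LGI 4 (3.62 log2) above HGI 4. With LGI 4 left out the difference of the main probe set was 1.73 ± 0.30 (adjusted p = 0.0666), and with array weights, which give less weight to arrays that fit poorly, it was 1.74 and passed (adjusted p = 0.0378).

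Slc4a1 and Alas2, markers of red cell precursors, were also higher in HGI, though neither passed limma's threshold. The difference was 2.25 for Slc4a1 (adjusted p = 0.0625) and 1.34 for Alas2 (adjusted p = 0.262), whose groups overlapped. Of 5 erythroid markers 3 were measured, and the third, Hba-a1, was level (0.02, adjusted p = 0.982). The mean log2 level of the 3 was 5.96 to 6.89 in HGI and 4.68 to 5.98 in LGI. Among the HGI mice the erythroid mean had the same order as Rsad2, with HGI 5 highest, then HGI 3, HGI 1, HGI 2 and HGI 4. Of these markers Alas2 and Slc4a1 carried the signal, and Hba-a1 was under every array's median. Among the LGI mice LGI 1 had the highest erythroid mean (5.98 log2) and the next to highest Rsad2 level, while LGI 4 had the highest Rsad2 level and an erythroid mean of 4.86 log2. The part of erythroid RNA in the Rsad2 difference was not tested. Isg20, an interferon-induced exonuclease that is not among the 39, showed a like separation, at 7.05 to 8.30 log2 in HGI and 5.53 to 6.83 in LGI (difference 1.47, adjusted p = 0.0575).

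**Figure D2:**
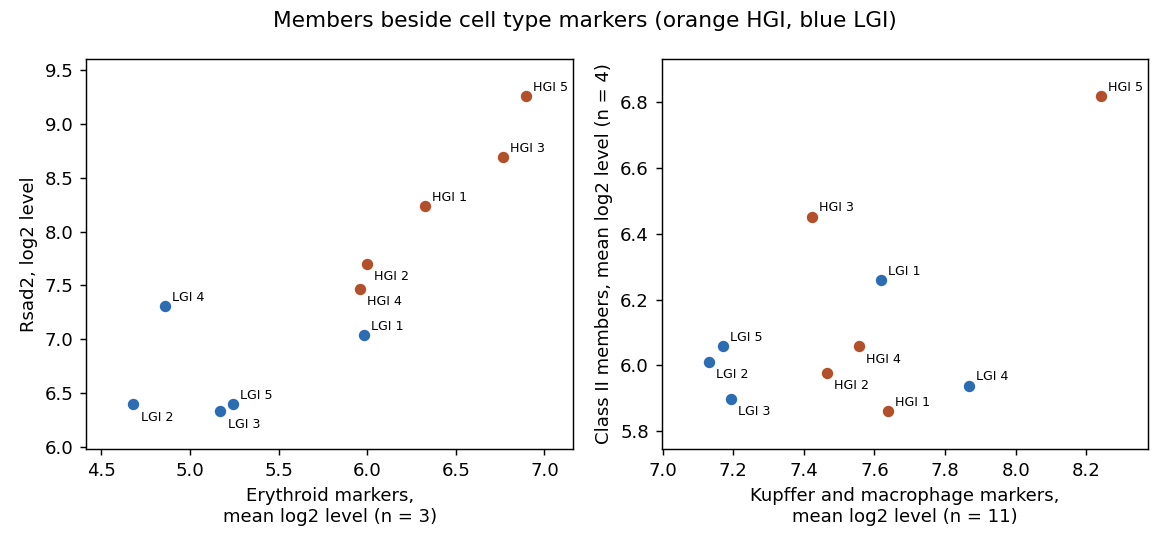
Left, the Rsad2 level against the mean of the 3 measured erythroid markers. Right, the mean of the 4 class II members against the mean of the 11 Kupffer cell and macrophage markers. Each point is 1 mouse, and both axes are log2 levels. HGI 5 is at the top right of both panels.

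Usp18, the protease that removes ISG15 from proteins and blocks signalling at the type I interferon receptor, lay the other way. Its level in HGI 1 to 5 was 4.96, 5.19, 5.42, 4.80 and 5.63 log2. In LGI 1 to 5 it was 5.79, 5.53, 5.87, 6.65 and 6.06 log2. The groups overlapped by 1 pair, since HGI 5 lay above LGI 2. The difference was -0.78 ± 0.20 (SE, n = 5 each; limma unadjusted p = 0.00162, adjusted p = 0.270), a 1.72-fold higher mean level in LGI. Without LGI 4, the highest array, it was -0.62 ± 0.16 (adjusted p = 0.277). The gene has 1 probe set, so no second reading was available.

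Of the RNA sensors, Ifih1 (MDA5, which detects long double-stranded RNA) stood at 7.42, 7.68, 7.81, 7.79 and 7.80 log2 in HGI 1 to 5. In LGI 1 to 5 it stood at 7.68, 8.04, 7.94, 8.18 and 7.94 log2. The groups overlapped, with LGI 4 highest and HGI 1 lowest of all. HGI 1 was the lowest array for 10 of the 39 members (25.6%), against 28.5% of all named genes. The difference of Ifih1 was -0.25 ± 0.11 (unadjusted p = 0.0346, adjusted p = 0.623) and -0.20 without LGI 4 (unadjusted p = 0.0903). Ddx58 (RIG-I, which detects RNA with a triphosphate end) stood at 0.12 (adjusted p = 0.828). At that probe set LGI 4 stood at 7.02 log2, where the rest of LGI lay at 6.95 to 7.09. The dimmer Ddx58 probe sets had differences of the opposite sign (-0.17 and -0.08, adjusted p = 0.796 and 0.907), and in the first of them LGI 4 was the highest array (5.76 log2, 0.33 above the other LGI mice).

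Among the transcription factors, Irf7, the amplifier of the type I response, had LGI 4 furthest above the rest of its group. Its level was 6.15, 6.17, 6.26, 5.97 and 6.42 log2 in HGI 1 to 5. In LGI 1 to 5 it was 5.99, 5.88, 6.07, 7.60 and 5.91 log2. LGI 4 lay 1.64 log2 (3.11-fold) above the mean of the other 4 LGI mice, which lay between 5.88 and 6.07 log2. The difference was -0.10 ± 0.27 (adjusted p = 0.968) with all arrays and 0.23 ± 0.10 without LGI 4 (unadjusted p = 0.0387, adjusted p = 0.624), so its sign turned on 1 mouse.

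Irf9, a DNA-binding factor of the type I interferon response, was high on 2 arrays, 1 in each diet. Its level was 6.67 log2 in HGI 1 and 5.99 to 6.14 in the other HGI mice. It was 6.67 log2 in LGI 4 and 5.74 to 5.91 in the other LGI mice. Without LGI 4 every HGI mouse lay above every LGI mouse, and the difference was 0.34 ± 0.13 (unadjusted p = 0.0219, adjusted p = 0.559), against 0.17 (adjusted p = 0.888) with all arrays. Irf1, a factor induced by interferon-gamma, stood at -0.24 (adjusted p = 0.747), with LGI 4 at 8.60 log2 and the other 9 mice at 7.66 to 8.08. Irf8, a factor of macrophages and dendritic cells, stood at -0.18 (adjusted p = 0.821), Stat2 at 0.07 (adjusted p = 0.954) and Ciita, the switch of class II genes, at -0.02 (adjusted p = 0.982). At these probe sets LGI 4 lay 0.13 above the other LGI mice in Stat2 and 0.05 below them in Ciita. The other Stat2 probe set differed: LGI 4 was its highest array (5.48 log2), 0.67 above the other LGI mice. The other Irf8 probe set had a difference of the opposite sign (0.05, adjusted p = 0.976), also with LGI 4 highest (6.23 log2). At the dimmer Ciita probe sets LGI 4 lay 0.77 and 0.06 below the other LGI mice. It was the lowest array at the first of them (3.34 log2).

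The 15 measured antiviral effectors had a median difference of -0.14 with 3 above 0, and of 0.01 without LGI 4 with 9 above 0. LGI 4 was the highest of all 10 arrays for 12 of the 15 (80.0%), against 14.7% of all named genes. Ifit1, which binds viral RNA, had the largest difference of the effectors after Rsad2. Its level was 3.86, 4.19, 4.52, 4.60 and 4.23 log2 in HGI 1 to 5. In LGI 1 to 5 it was 4.10, 4.92, 4.40, 6.22 and 4.24 log2. LGI 4 lay 3.49-fold above the mean of the other LGI mice, and the difference of -0.50 ± 0.32 (adjusted p = 0.791) was -0.14 ± 0.18 without it (adjusted p = 0.916).

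Oas1a, which makes 2-5A to activate RNase L, stood at 6.46 to 6.95 log2 in HGI, at 7.75 in LGI 4 and at 6.39 to 6.59 in the other LGI mice. Rtp4, an interferon-induced receptor transporter protein, stood at 7.22 to 7.66 log2 in HGI, at 8.48 in LGI 4 and at 7.07 to 7.36 in the other LGI mice. The difference of Oas1a was -0.08 with LGI 4 and 0.18 without it (adjusted p = 0.970 and 0.767). The difference of Rtp4 was -0.03 and 0.23 (adjusted p = 0.991 and 0.627). Xaf1, a partner of the apoptosis inhibitor XIAP, and Parp14, an ADP-ribosyltransferase, were 2.14-fold and 2.03-fold higher in LGI 4 than the mean of the other LGI mice. A dim second Parp14 probe set was highest in HGI 1 (3.72 log2), with LGI 4 at 3.58. In all 6 members (Irf7, Ifit1, Oas1a, Rtp4, Xaf1 and Parp14) lay at least 2-fold above that mean in LGI 4, or 15.4%, against 1.12% of all named genes.

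Bst2 (tetherin, which holds budding virus at the cell surface) stood at 7.70, 8.79, 8.61, 8.37 and 8.15 log2 in HGI 1 to 5. It stood at 8.73, 8.54, 8.66, 9.19 and 8.36 log2 in LGI 1 to 5, with HGI 1 lowest and LGI 4 highest of all. Its difference was -0.37 ± 0.19 (adjusted p = 0.711). Ifi35, an interferon-induced leucine zipper protein, stood at 9.09, 8.99, 9.15, 9.39 and 9.33 log2 in HGI 1 to 5 and at 9.12, 9.49, 9.41, 9.87 and 9.35 log2 in LGI 1 to 5. The groups overlapped, with LGI 4 highest, and the difference was -0.26 ± 0.13 (adjusted p = 0.701). The dimmer Ifi35 probe sets gave -0.27 (unadjusted p = 0.0259, adjusted p = 0.578) and -0.15 (unadjusted p = 0.298, adjusted p = 0.872), the latter -0.01 without LGI 4. The remaining effectors, Ifit2, Ifit3, Oasl1, Oasl2, Mx1, Mx2 and Trim30a, lay between -0.19 (Mx2) and 0.16 (Oasl2).

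**Figure D3:**
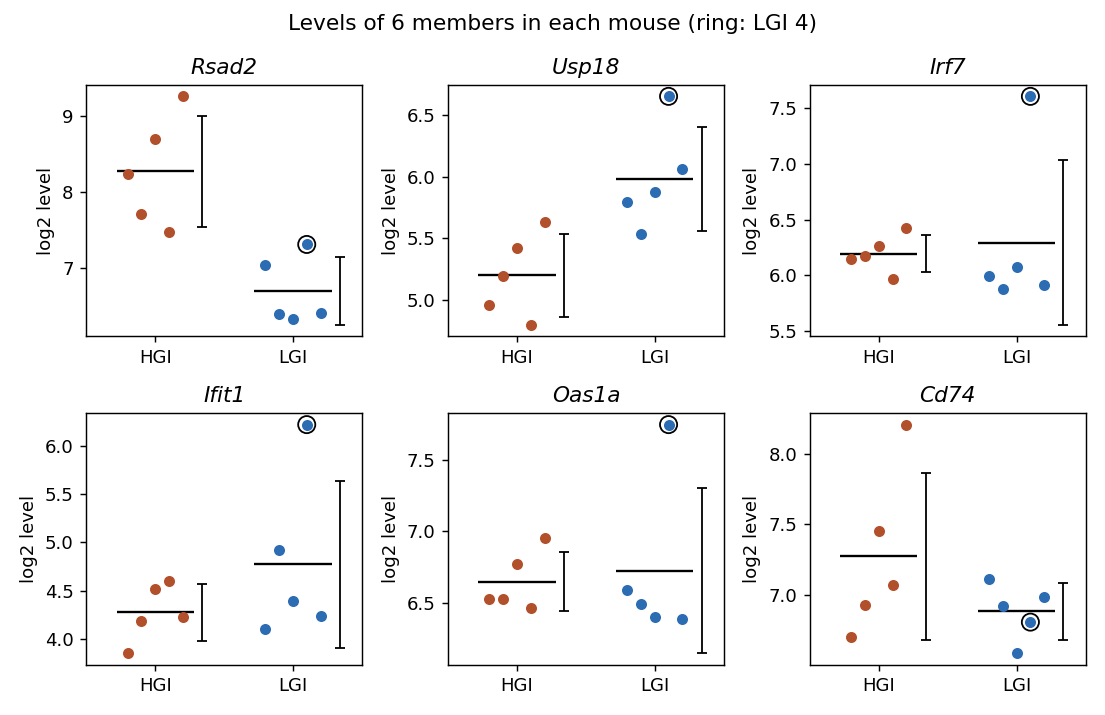
Log2 levels of Rsad2, Usp18, Irf7, Ifit1, Oas1a and Cd74 in each mouse; points are mice, horizontal lines are group means and bars are ± 1 SD (n = 5 each). The ring marks LGI 4, which is the highest LGI array in all but Cd74, and the diets are separate in Rsad2 at the brightest of its 3 probe sets, the one drawn, but not at the other two.

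Promoters of 4 effectors and GTPases are shown because Rsad2 led the members in HGI and because Ifit1, Oas1a and Igtp were high together in LGI 4. They are examples, and all 4 hold the ISRE core marked here. Irf7 and Xaf1, 3.11-fold and 2.14-fold above the other LGI mice in LGI 4, hold no such core in their windows and are not shown. They run from 250 bases before to 50 bases after the RefSeq start of the gene (build GRCm38.p6), 5′ to 3′ as RefSeq's table gives them. Capitals mark an ISRE core, GAAANNGAAA on either strand (TTTCNNTTTC on the other). The windows are chr12:26456403-26456702 (minus strand) for Rsad2, chr19:34640639-34640938 (plus) for Ifit1, chr5:120907476-120907775 (minus) for Oas1a and chr11:58199306-58199605 (plus) for Igtp.
Rsad2: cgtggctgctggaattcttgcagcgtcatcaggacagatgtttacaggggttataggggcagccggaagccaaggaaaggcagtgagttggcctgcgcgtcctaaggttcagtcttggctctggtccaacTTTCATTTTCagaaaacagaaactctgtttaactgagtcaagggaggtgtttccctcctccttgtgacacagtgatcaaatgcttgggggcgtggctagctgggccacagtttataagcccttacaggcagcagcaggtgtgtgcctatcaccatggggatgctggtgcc
Ifit1: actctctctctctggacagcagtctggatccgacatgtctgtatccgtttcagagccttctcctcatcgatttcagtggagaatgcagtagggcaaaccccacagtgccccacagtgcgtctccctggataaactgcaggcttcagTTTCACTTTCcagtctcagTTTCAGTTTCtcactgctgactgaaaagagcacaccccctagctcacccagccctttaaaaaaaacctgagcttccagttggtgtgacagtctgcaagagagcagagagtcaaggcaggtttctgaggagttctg
Oas1a: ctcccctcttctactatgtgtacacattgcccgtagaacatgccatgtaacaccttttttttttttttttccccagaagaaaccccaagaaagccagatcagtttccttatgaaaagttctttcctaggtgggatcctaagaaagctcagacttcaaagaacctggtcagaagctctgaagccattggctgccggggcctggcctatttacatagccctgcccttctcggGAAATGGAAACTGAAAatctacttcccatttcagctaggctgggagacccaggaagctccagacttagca
Igtp: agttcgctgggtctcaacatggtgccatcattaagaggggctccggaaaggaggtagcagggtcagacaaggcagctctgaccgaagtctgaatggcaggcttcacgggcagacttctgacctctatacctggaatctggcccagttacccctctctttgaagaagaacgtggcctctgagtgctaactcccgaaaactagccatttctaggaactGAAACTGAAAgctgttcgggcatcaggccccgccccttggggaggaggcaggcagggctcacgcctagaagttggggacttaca

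The ISRE core began 120 bases before the start in Rsad2 and 34 before it in Igtp. Ifit1 held 2, which began 104 and 85 bases before the start. In Oas1a 2 overlapping cores began 20 and 14 bases before it. Of the 29 members with a promoter in the table, 15 held the core in at least 1 window, against 3.99% of all 27025 genes there (3.44% of 32851 windows). The GAS core, TTCNNNGAA, which reads the same on both strands, was in windows of 7 of the 29 members, against 9.55% of genes. LGI 4 was the highest of the 10 arrays for 9 of the 15 members with an ISRE core and for 10 of the 14 without. The share over all named genes was 14.7%. The medians of LGI 4 minus the other LGI mice were 0.62 with the core and 0.40 without. A match of letters is a description and not a binding site.

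The interferon-gamma GTPases, which act on vacuoles that hold pathogens, had a median difference of 0.03 (0.16 without LGI 4). Iigp1 was the second brightest member after B2m, at 11.54 to 11.83 log2 in HGI, 12.32 in LGI 4 and 11.49 to 11.61 in the other LGI mice. Its difference was 0.00 with all arrays and 0.16 without LGI 4 (adjusted p = 0.998 and 0.705), and its dimmer probe set stood at 0.18 and 0.36 (adjusted p = 0.884 and 0.509). Igtp (IRGM3) stood at 7.72, 7.15, 7.64, 7.74 and 7.48 log2 in HGI 1 to 5 and at 7.39, 7.83, 7.69, 8.55 and 7.56 log2 in LGI 1 to 5. The groups overlapped, with LGI 4 highest, and the difference was -0.26 ± 0.19 (adjusted p = 0.819). Irgm1 stood at 0.05 (adjusted p = 0.975). Igtp, Irgm1 and Iigp1 were 1.91-fold, 1.70-fold and 1.72-fold higher in LGI 4 than the mean of the other LGI mice. Gbp2 and Gbp3 were not highest there but in HGI 5 (5.79 and 4.46 log2), with differences of 0.03 and 0.16 (adjusted p = 0.985 and 0.835).

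The chemokines, which draw T cells through CXCR3, differed in the array that led. Cxcl9 was highest in HGI 3 (8.40 log2, against 7.65 to 7.95 in the other HGI mice and 7.61 to 7.87 in LGI), with a difference of 0.20 (adjusted p = 0.787). Cxcl10 was highest in LGI 4 (5.16 log2, where the rest of LGI lay at 4.29 to 4.78 and HGI at 4.39 to 4.80), with a difference of -0.12 (adjusted p = 0.910).

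Class I genes were nearly level between the diets. B2m, the light chain of class I molecules, was the brightest member, at 13.05 to 13.35 log2 in HGI and 13.01 to 13.20 in LGI (difference 0.11 ± 0.08, adjusted p = 0.823). LGI 4, at 13.03 log2, was not raised. At the other B2m probe set, nearly as bright, LGI 4 was the lowest array (12.62 log2), 0.40 below the other LGI mice. The peptide transporter subunits Tap1 and Tap2 stood at -0.01 and -0.06 (adjusted p = 0.993 and 0.951) and Tapbp (tapasin, which loads peptides) at -0.08 (adjusted p = 0.943). Tap1 and Tapbp were highest in LGI 4 (6.28 and 9.45 log2), and Tap2 there (6.44 log2) lay within the other LGI mice. At the dimmer Tapbp probe set LGI 1 was highest (7.13 log2) and LGI 4 lay 0.04 above the other LGI mice.

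Class II genes followed another array. Cd74, the invariant chain, stood at 6.70, 6.93, 7.45, 7.07 and 8.21 log2 in HGI 1 to 5. In LGI 1 to 5 it stood at 7.11, 6.92, 6.58, 6.81 and 6.99 log2. HGI 5 was the highest of all, HGI 3 the next, and the other HGI mice lay among the LGI mice; the difference was 0.39 ± 0.23 (adjusted p = 0.752). H2-Ab1, the beta chain of the I-A molecule, stood at 5.90, 6.09, 6.62, 6.05 and 7.35 log2 in HGI 1 to 5 and at 6.56, 6.18, 6.13, 5.80 and 5.99 log2 in LGI 1 to 5. Its difference was 0.27 ± 0.24 (adjusted p = 0.864), and LGI 4 was the lowest array. Its other probe sets gave 0.33 and 0.15 (adjusted p = 0.721 and 0.908), also with HGI 5 highest. H2-Aa, the alpha chain, was also highest in HGI 5 (7.25 log2), with a difference of 0.16 (adjusted p = 0.897). H2-Eb1, the beta chain of I-E, stood at -0.02 (adjusted p = 0.985) and was not raised in HGI 5 (4.46 log2, the lowest HGI level). The probe sets of H2-Aa, H2-Ab1, Ifi35 and Gbp2 used here are of types that may also read related sequences, so their levels are uncertain to that extent.

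LGI 4 was the highest array for 0 of the 4 class II members and for 24 of the other 35, against 14.7% of all named genes. Over the 4 class II members the median of LGI 4 minus the other LGI mice was -0.04, against 0.62 for the antiviral effectors, 0.76 for the GTPases and -0.02 for all named genes. HGI 5 was the highest array for 8 of 39 members (20.5%), against 11.7% of all named genes. The median SD of the members was 0.27 log2 in LGI, 0.13 without LGI 4 and 0.23 in HGI, where all named genes had 0.14, 0.12 and 0.18. Within LGI, LGI 4 was the highest array for 28 of the 39 members (4436 of all 18193 named genes). Leaving out such an array tends to lower the SD by construction, and no array was left out of HGI here.

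**Figure D4:**
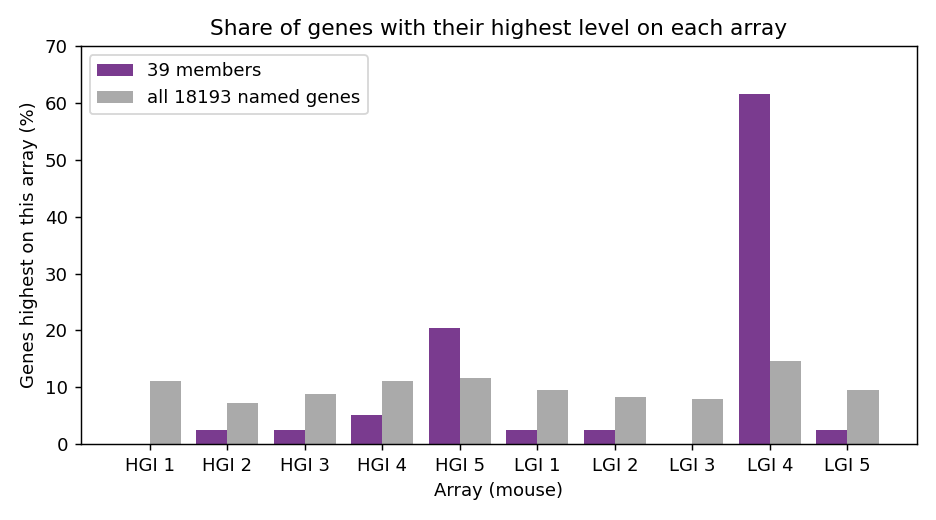
For each array, the percentage of the 39 members and of all 18193 named genes that had their highest level of the 10 arrays there. LGI 4 holds 61.5% of the members and 14.7% of all named genes, and HGI 5 holds 20.5% and 11.7%.

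Markers of other cells were read beside these arrays. All 11 measured Kupffer cell and macrophage markers had a difference above 0, as did 7611 of all 18193 named genes. None of them passed limma's threshold (smallest adjusted p = 0.525, Vsig4), and markers of 1 cell type are not independent of each other. Their mean log2 level was 7.42 to 8.24 in HGI and 7.13 to 7.87 in LGI, highest in HGI 5 (8.24), next in LGI 4 (7.87). Of 5 measured monocyte and neutrophil markers the mean was 4.77 to 5.80 log2 in HGI, 6.78 in LGI 4 and 4.85 to 5.02 in the other LGI mice. Of these, S100a8 stood at 8.92 log2 in LGI 4, 29.1-fold above the mean of the other LGI mice, and S100a9 at 9.31. The other 3 did not follow: LGI 4 lay 0.05 above the other LGI mice in Ccr2, 0.10 in Csf3r and 0.38 in Mpo. HGI 1 was the highest HGI array for this list (5.80 log2). The 8 endothelial markers lay at 6.50 to 7.12 log2 in HGI and 6.35 to 6.68 in LGI. Of these, 8 of 8 had a difference above 0 and none passed limma's threshold (smallest adjusted p = 0.217, Stab2).

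Lymphoid and dendritic markers were dim. The 4 B cell markers had a mean of 4.07 to 4.44 log2 in HGI and 3.98 to 4.25 in LGI, with HGI 5 highest and Ms4a1 under every array's median. The 9 T and NK cell markers lay at 4.09 to 4.35 log2 in HGI and 4.16 to 4.33 in LGI, with Cd3g, Ncr1 and Nkg7 below every median. The 5 dendritic cell markers lay at 3.83 to 4.29 log2 in HGI and 3.82 to 4.21 in LGI, with Cd209a and Xcr1 below every median. The 4 markers listed for plasmacytoid dendritic cells lay at 4.48 to 4.80 log2 in HGI and 4.52 to 5.72 in LGI. Of these, Ccr9 lay below every median and Ly6d alone was high in LGI 4, at 10.44 log2. The part of any of these cells in the levels of the members was not tested.

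When LGI 4 was left out and limma was run again over all probe sets, 0 of 39 members passed (0.132% of all named genes did). The members' median difference became 0.04, with 24 above and 15 below 0, against -0.03 for all named genes, of which 59.2% lay below 0. Of the members, 9 turned from below to above 0 (Irf7, Ifit2, Ifit3, Oas1a, Rtp4, Xaf1, Parp14, Cxcl10 and Tap1), or 23.1%, against 5.21% of all named genes. At an unadjusted p under 0.05 there were 5 (Rsad2, Irf7, Irf9 and Rtp4 higher in HGI, Usp18 lower), or 12.8%, against 9.23% of all named genes. With HGI higher there were 4 (10.3%), against 3.11%. Of the 39, 2 (Rsad2 and Irf9) had groups that did not overlap, both with HGI higher, against 3.89% of all named genes in either direction and 0.989% with HGI higher. LGI 4 lay above the mean of the other LGI mice in 32 of the 39 members (8199 of all 18193 named genes). Leaving it out raised the difference of those members by construction, so the shares above are not a test of diet. The 2 contrasts share 9 arrays and are not separate evidence.

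**Figure D5:**
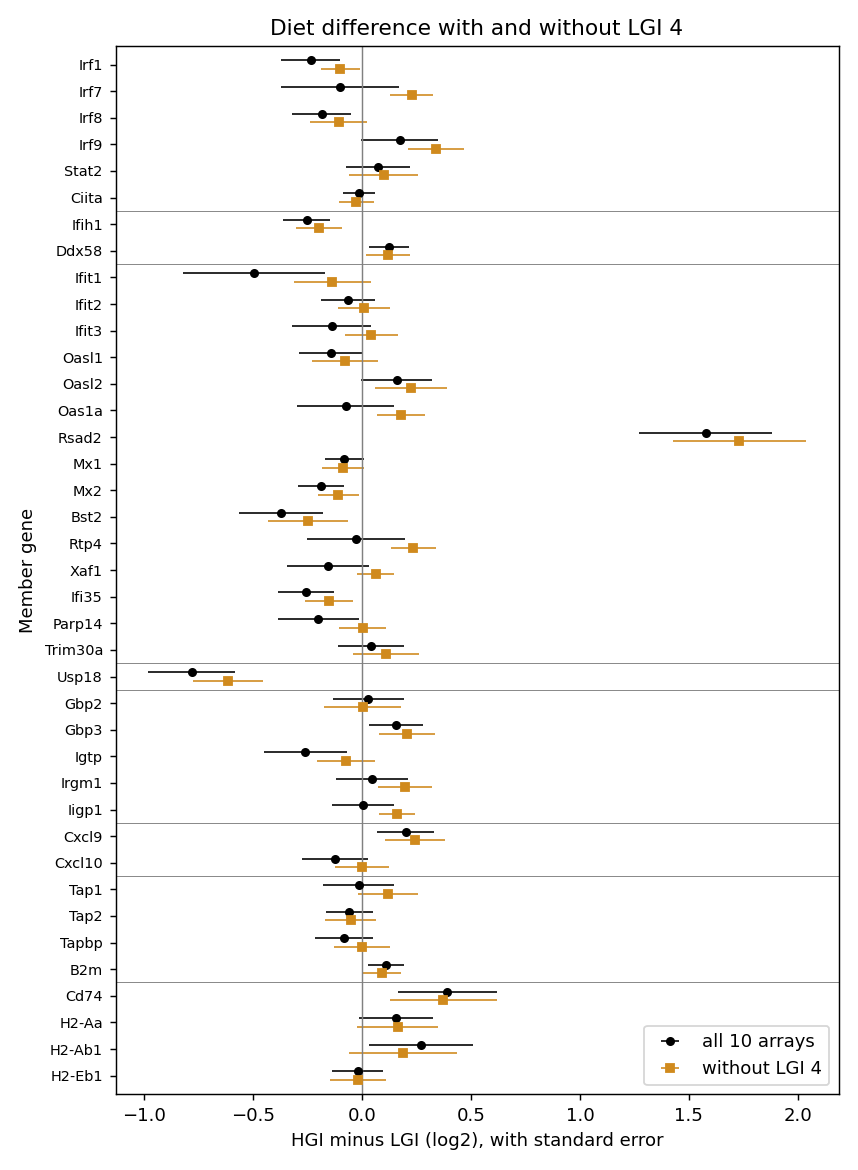
HGI minus LGI on the log2 scale for each member, with all 10 arrays (black circles) and without LGI 4 (orange squares); bars are standard errors. Rsad2 stands at 1.58 and 1.73 and Usp18 at -0.78 and -0.62, while Irf7, Oas1a and Rtp4 lie below 0 with all arrays and above 0 without LGI 4.

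Of 81 further genes of the pathway, 71 were measured and not among the members: receptors and kinases, sensors upstream of interferon, the interferons, other induced genes, negative regulators and other presentation genes. Of these 0 passed the threshold in either direction, with and without LGI 4, where 0.0824% and 0.132% of all named genes did. Their median difference was -0.06 with all arrays and 0.01 without LGI 4, against -0.03 and -0.03 for all named genes. The smallest p-values with HGI higher were those of Isg20 (above), Ifngr1, a chain of the interferon-gamma receptor (0.27, adjusted p = 0.690), and H2-Oa, a chain of the H2-O molecule that tunes class II peptide loading (0.21, adjusted p = 0.720). With HGI lower they were those of the immunoproteasome subunit Psmb9 (-0.22, unadjusted p = 0.0478, adjusted p = 0.658), the proteasome activator Psme1 (-0.24, adjusted p = 0.703) and Ifitm2, which blocks virus entry (-0.32, adjusted p = 0.723).

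LGI 4 was the highest of the 10 arrays for 34 of the 71 (47.9%), against 14.7% of all named genes. The excess was widest in Socs3, a feedback inhibitor of cytokine signalling, which stood at 10.03 log2 in LGI 4, 8.94 in HGI 1 and 5.43 to 6.83 in the other 8 mice. In LGI 4, Irgm2, Ifi27l2a and Dhx58 were 2.86-fold, 3.05-fold and 2.65-fold above the mean of the other LGI mice. Ifi27l2a was also high in HGI 5 (6.32 log2, against 6.69 in LGI 4). The interferon genes themselves were dim: Ifna4 and Ifng were under the median on all arrays, and Ifnb1 stood at 3.68 to 4.39 log2, with LGI 4 at 3.68.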

How the data were processed

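The authors deposited log2 expression values per probe set; per the submitters' processing notes the tools were RMA and R 2.6.1, and no further step is given in the sources used here. Of 45101 probe sets, 64 Affymetrix controls were left out. Platform symbols were checked against gene IDs in a RefSeq table (GRCm38.p6), and 34945 probe sets had 1 symbol, 932 several and 9160 none.

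The diets were compared in R 4.3.3 by limma 3.58.1, without covariates or a filter on signal, and p-values were adjusted by Benjamini and Hochberg's method over 45037 probe sets. The fit was repeated without LGI 4, an array singled out with earlier results of these data known. The fit was checked on simulated data. The members, the role groups, the further pathway genes and the marker lists were chosen with earlier results of these data known. Counts and medians of a list are descriptions beside the same over all named genes. All members are named, each at its brightest probe set unless another is stated; levels on each array are given for those with an unadjusted p under 0.05 or separate groups, the 6 next largest differences, and, chosen after their values were seen, members far apart in LGI 4. Further genes are the 3 of smallest p in each direction and the interferon genes. Socs3, Irgm2, Ifi27l2a and Dhx58, far apart in LGI 4, were added after their values were seen. The number of arrays, 5 per diet, limits the precision. Alternatives are given in the closing section. Samples are separate mice by their labels, and those sharing a number across diets were not treated as pairs.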

Additional observations from a re-analysis of the deposited data

Results flagged for a closer look

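Within each diet group of 5, an array was marked where its gap to the nearest other array was over 0.71 of the group's range (Dixon's critical value for 5 arrays). Chance alone marks about 1 group in 20. Among the 78 groups of the 39 members 15 were marked (19.2%), against 7.9% of the groups of all named genes, and 9 of the 15 were LGI 4 standing above the other LGI mice. Those were Irf7 (7.60 log2), Irf8 (6.55), Irf9 (6.67), Oas1a (7.75), Rtp4 (8.48), Xaf1 (6.95), Irgm1 (8.06), Iigp1 (12.32) and Tapbp (9.45). In HGI, HGI 1 stood above the others in Irf9 (6.67 log2), HGI 5 in Gbp2 (5.79) and Gbp3 (4.46), and HGI 2 stood below them in Oasl1 (5.64). In LGI, LGI 2 stood above the others in Gbp2 (5.67 log2) and LGI 5 below them in Trim30a (4.77). The members of 1 array are not independent of each other.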

How the results depend on the processing

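The difference of Rsad2 stayed above 0 in all 19 other fits (1.22 to 1.78), with adjusted p-values from 0.0378 to 0.297. The count of members past the threshold was 0 in these fits except with array weights, where it was 1 (Rsad2); it was 3 when an unadjusted p under 0.05 was the rule. Usp18 lay between -0.89 and -0.55 in the 18 fits that held it and never passed. The members' median ran from -0.10 to 0.07 and was above 0 without LGI 4 (0.04), without LGI 4 and HGI 1 (0.07) and with array weights (0.04). Irf7 ranged from -0.20 to 0.23 and Rtp4 from -0.12 to 0.23 when 1 array was left out; without LGI 4 and HGI 1 they stood at 0.24 and 0.28 (unadjusted p = 0.0390 and 0.0172). The number of probe sets past the threshold was 29, 5 to 49 with 1 array left out (49 without HGI 3, 15 without HGI 4, 7 without HGI 5 and 5 without any of LGI 2, LGI 3 or LGI 5), 58 without LGI 4 and HGI 1, 63 with quantile normalization, 17 with median centring, 64 with array weights and 3397 by unadjusted p. With the number in the titles as a replicate block it was 33, and 0 members passed; the deviations of same-numbered mice correlated at -0.05 to 0.07, so the numbers were not taken as pairs. A filter at a mean log2 of 6 left 23 members. The dim members Mx1 and Ifit2 lay below the median on every array, which limits what their differences can show.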
